A study of Mus musculus with 24 samples.

Results

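Bzw2, Klrg2, Epcam, Scd1, Tbc1d9, Qrich1, Calm2, Slc25a4, Sp6 and Sox13 are 10 autosomal mouse genes that were chosen by their measured RNA levels, which differed between embryos labelled as overexpressing the histone demethylase KDM6B (KDM6B OE) and their controls (KDM6B CTR) at the 2-cell or the 4-cell stage. They are 10 of 46078 genes in the tables of manipulated embryos and of 55573 in the table of oocytes and late 2-cell embryos, and all 10 were above the low-value filter in each table. Since the KDM6B libraries chose the genes, every value of the 10 genes from those libraries is given as a description without a test. The rule that chose them names no numerical threshold. Tests are given for the other groups, whose libraries the rule did not use. Earlier results of these data were known when the genes were chosen. The PR-DUB libraries were fitted together with the KDM6B ones, so each PR-DUB p-value uses a spread that is partly that of the KDM6B libraries. The PR-DUB tests are thus not fully independent of the choice. Fits of only the compared libraries, given as an alternative, leave the KDM6B libraries out.

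RNA was sequenced from pools of mouse embryos and of MII oocytes (unfertilised eggs arrested in meiosis), as 24 libraries in 12 groups of 2. PR-DUB and KDM6B embryos, each as CTR and OE at both cell stages, were B6/DBA x PWK crosses. Eed CTR and Eed matKO (maternal knockout) 4-cell embryos had mothers of a B6/129 mixed background and PWK fathers, with the deletion carried by the mother only; MII oocytes were B6/DBA, and the late 2-cell embryos, whose columns are headed 30hpf, came from B6/DBA parents on both sides and were not manipulated. Pool sizes were 15 embryos for PR-DUB at the 2-cell stage, 19 (CTR) or 16 (OE) for PR-DUB at the 4-cell stage, and 17 or 18 for KDM6B at the 2-cell stage, and are not given for the rest. The labels state neither what control pools received nor whether the paired libraries of a group were collected separately, so all p-values below measure the spread between these libraries, which may be technical. The field describing the manipulation of the KDM6B OE 2-cell libraries names PR-DUB, while their titles name KDM6B; the titles were followed. In pools of whole embryos, fewer cells and less RNA per cell cannot be told apart.

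KDM6B is a demethylase of lysine 27 on histone H3 and takes off a repressive mark (H3K27me3) that the Polycomb complex PRC2, with its core subunit EED, puts on chromatin. The mark is laid down widely in the growing oocyte and passes to the embryo on the maternal genome, while the embryo's own genes are switched on from the 2-cell stage. PR-DUB, in which BAP1 works with an ASXL partner, strips ubiquitin off histone H2A, a mark placed by the other Polycomb complex, PRC1. The 10 genes have varied roles: Sp6 and Sox13 are DNA-binding transcription factors of the Sp and Sox families, and Qrich1 is a transcriptional regulator of the unfolded protein response in mammalian cells. Epcam is an adhesion protein of epithelia and Klrg2 a lectin-like receptor of the cell membrane. Scd1 introduces the double bond that turns saturated into monounsaturated fatty acids, Slc25a4 exchanges ADP and ATP across the inner mitochondrial membrane, Calm2 is one of the genes for the calcium sensor calmodulin, Bzw2 is a translation regulator that resembles the initiation factor eIF5, and Tbc1d9 belongs to the TBC family of Rab GTPase activators.

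On mm10 with the GENCODE vM21 annotation, all 10 are protein-coding genes. Epcam (chr17:87635979-87651129, plus strand) and Calm2 (chr17:87433412-87446935, minus strand) lie 189.0 kb apart with no protein-coding gene between them, and the others are scattered over chromosomes 12 (Bzw2), 6 (Klrg2), 19 (Scd1), 8 (Tbc1d9 and Slc25a4), 9 (Qrich1), 11 (Sp6) and 1 (Sox13). Bzw2 overlaps Ankmy2, which is on the opposite strand and reached 43.2 FPKM. The kit marks strand, but the sources used here do not say whether counting used it, so reads of Bzw2 and Ankmy2 in the overlap cannot be told apart. Calm2, Slc25a4 and Scd1 have close paralogs, and how the authors divided reads between similar copies is not stated.

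RefSeq promoters (build GRCm38.p6, 250 bases before to 50 after the start) were found for 7 of the 10 genes: Bzw2, Klrg2, Epcam, Tbc1d9, Qrich1, Slc25a4 and Sox13. Printed here, 5′ to 3′ on the gene's strand, are the promoters of the 2 pairs of genes whose levels were most alike across libraries, Epcam with Sox13 and Bzw2 with Tbc1d9, and of Slc25a4, which had the largest KDM6B difference at the 4-cell stage. They lie at chr17:87635729-87636028 (plus strand), chr1:133424163-133424462 (minus), chr12:36156776-36157075 (minus), chr8:83165102-83165401 (plus) and chr8:46211013-46211312 (minus). Capitals mark the GC box GGGCGG or its reverse complement CCGCCC, a motif that Sp family proteins can bind.
Epcam: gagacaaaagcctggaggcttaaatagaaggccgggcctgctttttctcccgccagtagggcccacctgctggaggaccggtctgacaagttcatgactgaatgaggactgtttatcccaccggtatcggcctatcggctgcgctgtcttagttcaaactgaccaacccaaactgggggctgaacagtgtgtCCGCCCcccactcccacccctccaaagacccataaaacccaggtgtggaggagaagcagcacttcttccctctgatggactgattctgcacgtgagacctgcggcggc
Sox13: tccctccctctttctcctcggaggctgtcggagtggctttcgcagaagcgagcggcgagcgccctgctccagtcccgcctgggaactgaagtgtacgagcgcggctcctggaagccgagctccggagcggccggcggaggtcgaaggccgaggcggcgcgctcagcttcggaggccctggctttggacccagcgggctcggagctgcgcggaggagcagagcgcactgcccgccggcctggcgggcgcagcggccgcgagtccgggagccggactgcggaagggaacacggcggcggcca
Bzw2: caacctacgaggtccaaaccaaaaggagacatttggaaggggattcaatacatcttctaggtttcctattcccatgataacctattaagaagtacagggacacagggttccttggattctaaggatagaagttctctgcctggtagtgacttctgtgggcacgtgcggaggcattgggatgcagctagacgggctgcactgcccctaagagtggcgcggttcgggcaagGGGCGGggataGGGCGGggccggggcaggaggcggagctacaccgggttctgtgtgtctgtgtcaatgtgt
Tbc1d9: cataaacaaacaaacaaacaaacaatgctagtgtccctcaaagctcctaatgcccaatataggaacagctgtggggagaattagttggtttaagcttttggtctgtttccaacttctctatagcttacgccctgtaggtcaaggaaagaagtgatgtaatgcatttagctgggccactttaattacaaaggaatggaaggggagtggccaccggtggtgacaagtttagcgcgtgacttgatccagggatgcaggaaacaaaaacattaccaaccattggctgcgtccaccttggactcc
Slc25a4: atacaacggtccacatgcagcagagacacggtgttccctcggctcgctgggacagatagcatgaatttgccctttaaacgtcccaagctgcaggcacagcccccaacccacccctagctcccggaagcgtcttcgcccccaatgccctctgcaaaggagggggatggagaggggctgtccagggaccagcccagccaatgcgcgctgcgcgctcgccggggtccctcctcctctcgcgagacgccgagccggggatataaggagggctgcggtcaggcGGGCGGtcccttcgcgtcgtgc
A GC box was present in 5 of the 7 promoters, against 35.7% of 32851 mouse promoters of the same length, with none in those of Tbc1d9 and Sox13. The letters CCAAT or their reverse complement ATTGG were present in 5 of the 7 (37.4% of all promoters), and TATAAA or TTTATA in 0 of 7 (13.6%). These matches describe the letters in the window and are not measured binding sites. The CpG count ranged from 5 in Tbc1d9 to 40 in Sox13, beside a median of 7 and quartiles of 3 and 20 over all promoters. Epcam had 11 CpG and Sox13 40, although the RNA levels of these 2 genes ran closely in parallel. Bzw2 had 12 and Slc25a4 25.

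Kdm6b itself did not separate OE from CTR. FPKM (a level in sequenced fragments, corrected for gene length and library size) of Kdm6b were 14588 and 14735 in the KDM6B CTR 2-cell libraries and 14237 and 9809 in the OE ones, while 4-cell embryos had 571 and 401 in CTR and 597 and 547 in OE. In the PR-DUB libraries it was 5.24 to 26.4. Control and OE libraries of the KDM6B experiment thus both held far more Kdm6b RNA than any PR-DUB library, the OE libraries lay below the controls at the 2-cell stage, and the groups overlapped at the 4-cell stage; the names OE and CTR below are the labels' own. If the smallest step of a library is 1 fragment, depth was 11.5 to 20.6 M fragments, and 10855 to 11801 genes reached 1 FPKM. The summed FPKM of 5 oocyte markers (Zp3, Gdf9, Bmp15, Oosp1 and Mos) was 659 to 687 in KDM6B CTR 2-cell libraries, 434 to 506 in KDM6B OE, 258 to 269 in PR-DUB CTR, 305 to 308 in PR-DUB OE and 245 to 285 in late 2-cell embryos, against 3019 to 3057 in MII oocytes. The sum of 5 markers of 2-cell embryos (Zscan4c, Zscan4d, Zfp352, Tcstv3 and Usp17lc) was 389 to 394 in KDM6B CTR, 233 to 345 in KDM6B OE and 191 to 226 in PR-DUB 2-cell embryos. Of 8 cumulus or granulosa markers, 1 reached 1 FPKM in each group. In the 2-cell groups of both experiments it was Amhr2, at 6.18 and 6.93 FPKM in KDM6B CTR, 9.78 and 14.1 in KDM6B OE and 18.6 to 21.6 in PR-DUB embryos, while Fshr and Inha were listed at 0.

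**Figure D1:**
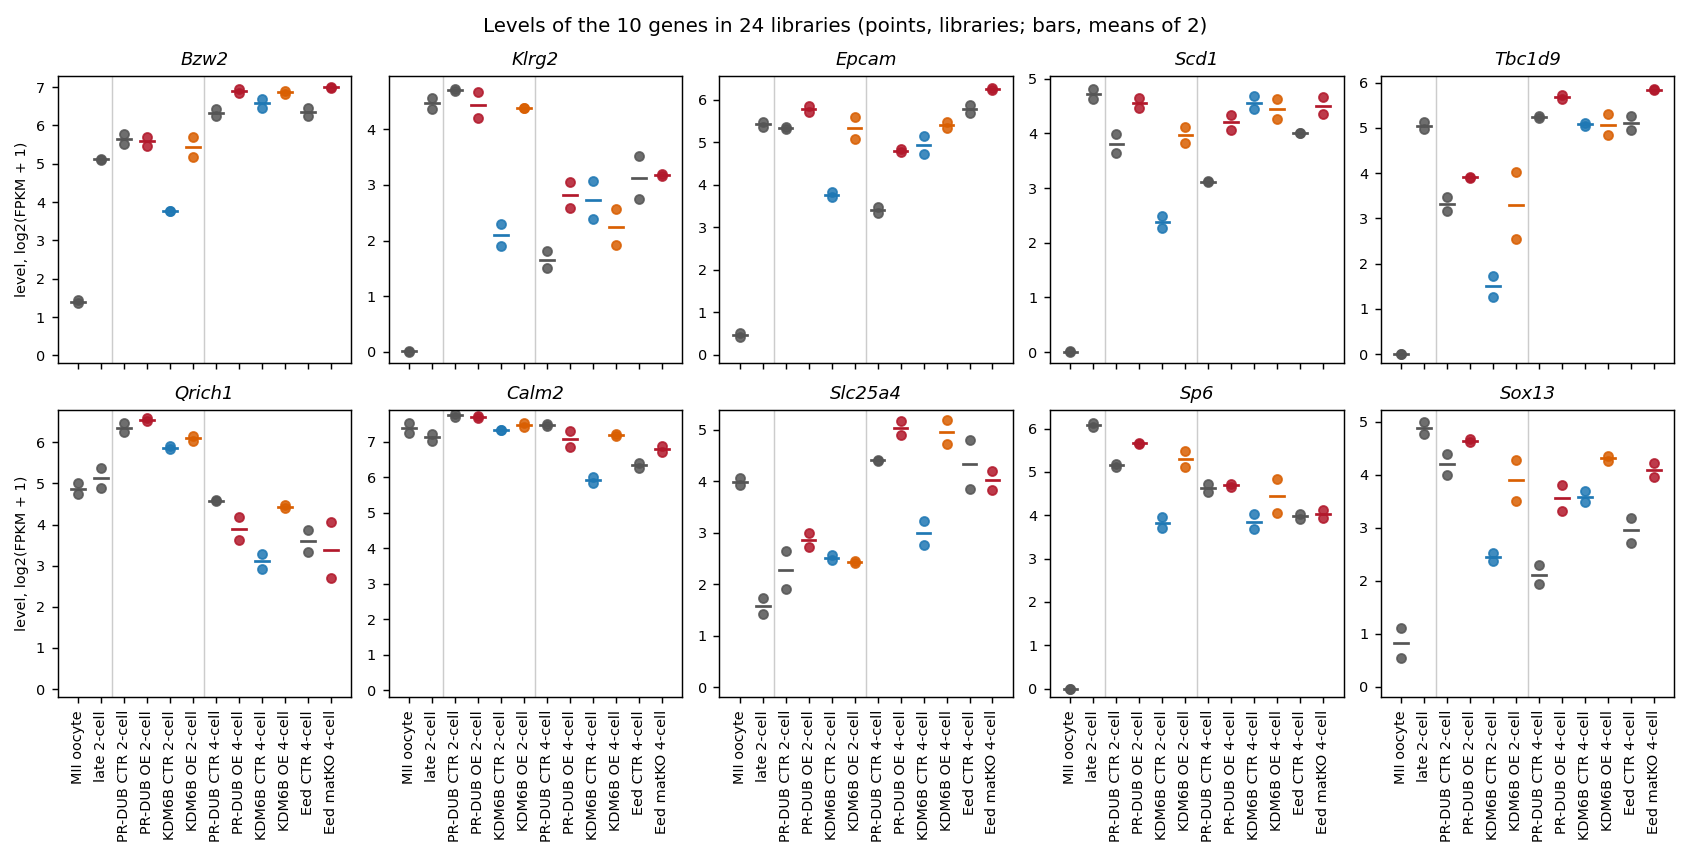
Level of each of the 10 genes, as log2(FPKM + 1), in every library of the 12 groups; points are libraries, bars the mean of 2, KDM6B CTR is blue, KDM6B OE orange, PR-DUB OE and Eed matKO red and the remaining groups grey. In 7 panels (Bzw2, Klrg2, Epcam, Scd1, Tbc1d9, Sp6 and Sox13) the blue points are the lowest of the 2-cell embryo groups, and in Qrich1, Calm2 and Slc25a4 the blue points are the lowest at the PR-DUB and KDM6B 4-cell stage.

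In 7 of the genes the KDM6B difference was mainly at the 2-cell stage, where mean FPKM in OE was 2.93- to 5.96-fold that in CTR. Sp6 was listed at 14.5 and 12 FPKM in CTR and 33.5 and 44.0 in OE, a ratio of 2.93. Sox13, the other DNA-binding factor of this set, had 4.15 and 4.74 in CTR and 10.4 and 18.5 in OE, a ratio of 3.26. For both genes all OE libraries were above all CTR libraries, with the OE pair of Sox13 spread more widely than its controls.

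Of the cell-surface proteins, Klrg2 had 3.91 and 2.75 FPKM in CTR and 19.9 in both OE libraries, the widest ratio of the 10 genes at 5.96. Epcam had 13.1 and 12.1 in CTR and 32.9 and 47.3 in OE, a ratio of 3.18. Neither gene's groups overlapped.

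Among the metabolic, translational and trafficking genes, Scd1 had 4.59 and 3.85 FPKM in CTR and 13.1 and 16.3 in OE, a ratio of 3.49. Bzw2 had 12.5 and 12.7 against 34.9 and 50.5, a ratio of 3.39. Tbc1d9 had 2.32 and 1.39 against 4.85 and 15.3, a ratio of 5.41 that rests largely on the second OE library. The first OE library of Tbc1d9 was also above both controls, so the groups did not overlap. For Sp6, Sox13, Epcam, Scd1 and Bzw2 the second OE library was likewise the higher one.

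In the other 3 genes the 2-cell groups differed by 1.18-fold or less. Qrich1 had 58.8 and 55.9 FPKM in CTR and 70.7 and 64.4 in OE (ratio 1.18), Calm2 160.3 and 160.4 against 183 and 171 (ratio 1.1), and Slc25a4 4.89 and 4.51 against 4.48 and 4.31, its OE libraries lying below the controls. Counted over the 10 genes, OE lay above CTR without overlap in 9 (22.9% of all 15055 genes tested did so) and below in 1, Slc25a4 (21.1% of all genes). The median log2 difference was 1.52 for the 10 genes and 0.00 for all genes. These counts follow from the choice of the genes. The oocyte marker sum was lower in OE than in CTR in the same libraries, as given above, and so was that of the 2-cell markers; their part in the difference was not tested.

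At the 4-cell stage Qrich1, Calm2 and Slc25a4 showed the larger KDM6B differences. Qrich1 had 6.61 and 8.71 FPKM in CTR and 21.2 and 20.1 in OE, a ratio of 2.69. Calm2 had 56.2 and 64.2 against 142 and 149, a ratio of 2.42. Slc25a4 had 8.35 and 5.78 against 25.4 and 35.5, a ratio of 4.31. In each gene both OE libraries were above both controls.

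Of the 7 genes with a 2-cell difference, 4 still lay higher in OE at the 4-cell stage without overlap, at smaller ratios. Sox13 had 11.9 and 10.2 FPKM in CTR against 18.3 and 19.5 (ratio 1.71), Sp6 11.8 and 15.3 against 27.5 and 15.7 (1.59), Epcam 25.2 and 34.5 against 43.6 and 39.3 (1.39) and Bzw2 103 and 86.4 against 112 and 119 (1.22). The Sp6 groups were separated by the small gap between 15.3 and 15.7. Klrg2 (4.21 and 7.36 against 2.77 and 4.91), Scd1 (20.8 and 24.6 against 18.2 and 23.8) and Tbc1d9 (32.1 and 33.6 against 38.4 and 27.5) overlapped. In all, 7 genes were higher without overlap (14.8% of all genes) and 0 lower (20.2%), again by the choice of the genes. The oocyte marker sum was 87.9 to 97.9 in CTR and 69.4 to 71.5 in OE at this stage. The 2-cell marker sum went the other way, at 20.6 to 40.3 in CTR and at least 44.8 in OE. Of its genes only Usp17lc was higher without overlap, at 8.4 and 5.14 FPKM in CTR and 13.1 and 10.6 in OE. Zscan4c, Zfp352 and Tcstv3 overlapped with higher means in OE, and Zscan4d overlapped with a lower mean. The part of these markers was not tested.

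The PR-DUB controls, embryos of the same cross and stage, placed these levels. At the 2-cell stage the OE libraries were close to the PR-DUB controls and the KDM6B controls were the group that stood apart. Bzw2 was at 45.1 and 53.7 FPKM in PR-DUB CTR, beside 34.9 and 50.5 in KDM6B OE and 12.5 and 12.7 in KDM6B CTR. Epcam was at 40.1 and 38.7 in PR-DUB CTR, between the OE values of 32.9 and 47.3 and well above the KDM6B CTR values of 13.1 and 12.1. Sp6 was at 33.7 and 35.4, again between the OE values of 33.5 and 44.0.

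The genes were chosen on the KDM6B CTR and OE values, so the choice shapes this placing too, and the counts below support nothing about the genes. Over the 10 genes, KDM6B CTR 2-cell libraries lay below PR-DUB CTR 2-cell libraries without overlap in 9 (34.6% of all genes), above in 0 (28.4%) and overlapped in Slc25a4. KDM6B OE libraries overlapped PR-DUB CTR in 7 genes and lay below it in 3 (Klrg2, Qrich1 and Calm2; 30% of all genes) and above in 0 (23.8%). The ratio of PR-DUB CTR to KDM6B CTR was 7.56 for Klrg2, 4.85 for Tbc1d9, 3.95 for Sox13, 3.93 for Bzw2, 3.13 for Epcam, 3.12 for Scd1 and 2.61 for Sp6, and smaller for Qrich1 (1.41) and Calm2 (1.34). These counts and ratios use FPKM as deposited. The factors that level the median over steadily detected genes were 1.174 and 1.197 in KDM6B CTR and 1.146 and 1.059 in KDM6B OE. In PR-DUB CTR they were 0.95 and 0.936. The small gaps of Qrich1 and Calm2 therefore depend on the scale of the libraries. Both experiments' 2-cell libraries were in the set sequenced on a NextSeq550, per the labels. They were separate experiments, so the experiment and the treatment of the controls cannot be told apart. The oocyte and 2-cell marker sums of KDM6B CTR were also the furthest from those of PR-DUB CTR, and their part was not tested.

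At the 4-cell stage, where the choice of the genes bears on the placing in the same way, the genes split. KDM6B CTR was 3-fold below PR-DUB CTR in Qrich1 (22.8 and 23.1 FPKM in PR-DUB CTR), 2.95-fold below in Calm2 (182 and 173) and 2.85-fold below in Slc25a4 (20.1 and 20.2), so that KDM6B OE again stood nearer to the PR-DUB controls. Epcam, Scd1, Sox13 and Klrg2 had the opposite arrangement. Their PR-DUB CTR libraries were at 10.1 and 9.07, 7.64 and 7.74, 3.92 and 2.82, and 2.5 and 1.84 FPKM, below both KDM6B groups, and for Sox13 the ratio of KDM6B OE to PR-DUB CTR reached 5.61. In sum, KDM6B CTR was above PR-DUB CTR in 5 genes (44.4% of all genes) and below in 5 (21.0%), and KDM6B OE above in 6 (40.8%), below in 2 (22.3%) and overlapping in Tbc1d9 and Sp6. The KDM6B 4-cell libraries belong to the 12 sequenced on a NextSeq550 or a HiSeq2000 and the PR-DUB ones do not, so the experiment and the set of sequenced libraries cannot be told apart here. This placing uses FPKM as deposited. The factors that level the median over steadily detected genes were 0.887 and 0.888 in KDM6B CTR and 0.918 and 0.91 in KDM6B OE. In PR-DUB CTR they were 1.078 and 1.064. The gaps of Bzw2 in KDM6B CTR and of Klrg2 in KDM6B OE therefore depend on the scale of the libraries. The shares over all genes use the same unscaled FPKM. The marker sums differed too. In PR-DUB CTR the 2-cell marker sum was 125 to 152, above both KDM6B groups, and the oocyte marker sum 45.6 to 48.7, below both. Their part in the placing was not tested.

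**Figure D2:**
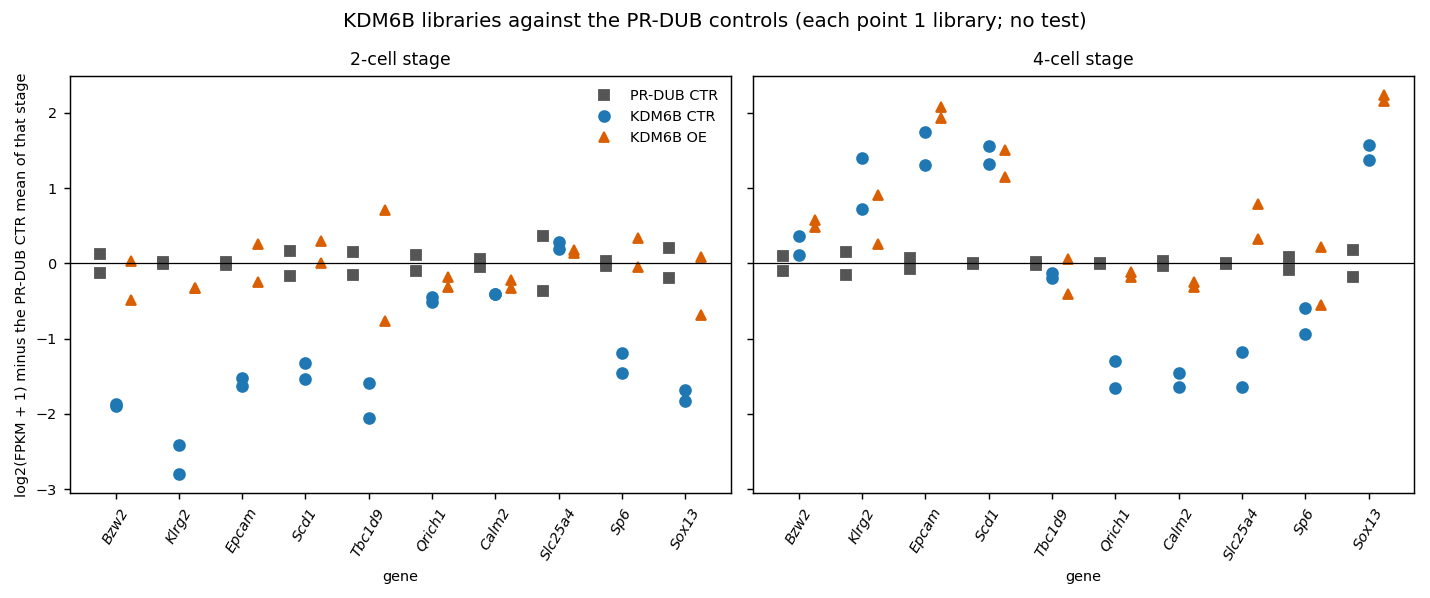
Each library's log2(FPKM + 1) minus the mean of the PR-DUB CTR libraries of the same stage, for the 10 genes at the 2-cell (left) and 4-cell (right) stage; squares are PR-DUB CTR, circles KDM6B CTR and triangles KDM6B OE, 1 point a library. At the 2-cell stage the circles lie below 0 in 9 genes while the triangles lie around 0, and at the 4-cell stage the circles of Qrich1, Calm2 and Slc25a4 lie 1.41 to 1.55 below 0 on average.

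Between the 2-cell and 4-cell stages of the PR-DUB controls the 10 genes took opposite courses. Tbc1d9, Slc25a4 and Bzw2 rose and Klrg2, Sox13, Epcam, Qrich1 and Scd1 fell, 8 of 10 genes in all; 56.7% of all genes were called in this comparison, 26.5% higher and 30.2% lower (adjusted p under 0.05, limma on log2(FPKM + 1)). Slc25a4 went from 2.74 and 5.22 FPKM to 20.1 and 20.2, 5.06-fold up (log2 change 2.13 ± 0.26 SE, adjusted p = 1.73e-05). Tbc1d9 went from 7.95 and 10.1 to 36.2 and 37.5, 4.09-fold up (adjusted p = 0.000565). Bzw2 rose 1.62-fold (adjusted p = 0.00487).

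Klrg2 fell most, from 24.9 and 25.4 FPKM to 2.5 and 1.84, an 11.6-fold drop (log2 change -3.05 ± 0.29 SE, adjusted p = 2.39e-06). Sox13 dropped 5.21-fold (adjusted p = 2.48e-05), Epcam 4.11-fold (adjusted p = 2.36e-06), Qrich1 3.52-fold (adjusted p = 4.48e-06) and Scd1 1.71-fold (adjusted p = 0.009). The Scd1 call was lost without the second PR-DUB CTR 2-cell library (adjusted p = 0.0871). Sp6, at 33.7 and 35.4 and then 25.2 and 22.1 FPKM, and Calm2, at 222 and 206 and then 182 and 173, were lower without overlap but not called (adjusted p = 0.0652 and 0.106); with only the 4 libraries fitted both were called (0.0143 and 0.0372). Without overlap 3 genes were higher (37.8% of all genes) and 7 lower (41.3%). The same step in the KDM6B controls is a description and crosses the split between the sequenced sets. It also uses control values on which the genes were chosen, so the choice shapes the order. There Klrg2, Epcam, Scd1 and Sox13 had higher means at 4 cells than at 2 cells (3.33 and 5.79, 12.6 and 29.8, 4.22 and 22.7, and 4.44 and 11.1 FPKM at 2 and 4 cells), the reverse of the PR-DUB order, while Qrich1 had the same order in both (57.3 and 7.66).

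PR-DUB overexpression is a contrast that the rule for choosing the genes did not use. Bap1, the catalytic subunit of PR-DUB, was at 6.02 and 6.2 FPKM in CTR and 10.6 and 8.81 in OE at the 4-cell stage, and at 18.3 and 16.1 against 22 and 20.3 at the 2-cell stage, with OE above CTR in both. Of all genes, 39.0% and 31.4% were likewise higher without overlap. The KDM6B CTR libraries held more Bap1 than PR-DUB OE, at 18.0 and 16.6 (4-cell) and 23.1 and 35.3 (2-cell), so Bap1 does not check the overexpression. At the 4-cell stage Epcam, Sox13, Scd1 and Klrg2 rose and Qrich1 fell, so 5 of 10 genes were called, against 15.7% of all genes (12.3% higher and 3.41% lower). In FPKM as deposited, the PR-DUB CTR libraries of the genes that rose lay below both KDM6B groups at this stage, as given above. Epcam had 10.1 and 9.07 FPKM in CTR and 27.6 and 26.1 in OE, a 2.81-fold rise (log2 change 1.40 ± 0.18 SE, adjusted p = 0.00102). Sox13 had 3.92 and 2.82 against 13 and 8.91, a 3.26-fold rise (log2 change 1.44 ± 0.26 SE, adjusted p = 0.00428). Scd1 had 7.64 and 7.74 against 15.8 and 19.1, a 2.27-fold rise (log2 change 1.08 ± 0.20 SE, adjusted p = 0.00428). The calls of these 3 genes held when any 1 of the 4 libraries was left out and under the other settings tried.

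Klrg2 had 2.5 and 1.84 FPKM in CTR and 5.0 and 7.26 in OE, a 2.83-fold rise (adjusted p = 0.0196). Qrich1 had 22.8 and 23.1 against 11.3 and 17.2, a 1.61-fold drop (adjusted p = 0.0257). Neither gene's groups overlapped, but both calls depended on single libraries. Klrg2 was not called without the first or the second CTR library (adjusted p = 0.0538 and 0.118) or without the second OE library (0.13), and Qrich1 not without the first or second CTR library (0.1 and 0.107) or the first OE library (0.207), nor with only the 4 libraries fitted (0.0945).

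Bzw2 (74.3 and 85.6 FPKM in CTR, 113 and 122 in OE, adjusted p = 0.0518) and Calm2 (182 and 173, then 115 and 157, adjusted p = 0.0619) did not overlap between groups and were not called. Bzw2 was called with only the 4 libraries fitted (adjusted p = 0.0434) and Calm2 without the second OE library (0.0149). Slc25a4 had 20.1 and 20.2 against 28.7 and 34.7 (adjusted p = 0.125) and Tbc1d9 36.2 and 37.5 against 51.7 and 48.5 (adjusted p = 0.481). Sp6 was almost level, at 25.2 and 22.1 against 24.3 and 25.3 (adjusted p = 0.9). Without overlap, 7 genes were higher (39.0% of all genes) and 2 lower (18.8%). The median log2 change of the 10 genes was 0.59 and that of all genes 0.129. With libraries rescaled so that the median over steadily detected genes was level, these were 0.38 and 0.00, the calls over all genes moved from 1855 higher and 513 lower to 1193 and 952, and the 5 genes kept their calls and directions while Calm2 was called in addition, lower in OE (adjusted p = 0.014). The 2-cell marker sum was 125 to 152 in CTR and 67.3 to 285 in OE, its extremes both being OE libraries.

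At the 2-cell stage PR-DUB OE changed none of the 10 genes past the threshold (limma, 1.18% of all genes called), with 4 genes at an unadjusted p under 0.05. These were Scd1, with 11.5 and 14.8 FPKM in CTR and 24.2 and 21.0 in OE (adjusted p = 0.0987), Epcam, with 40.1 and 38.7 against 56.4 and 51.6 (0.288), Slc25a4, with 2.74 and 5.22 against 6.93 and 5.59 (0.324), and Sp6, with 33.7 and 35.4 against 49.0 and 49.8 (0.345). Without overlap 7 genes were higher (31.4% of all genes) and 1, Klrg2, lower (17.1%). Tbc1d9, Qrich1 and Sox13 were among the higher (adjusted p = 0.522, 0.697 and 0.49), whereas Bzw2 and Calm2 overlapped (0.948 and 0.949).

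The PR-DUB change at the 4-cell stage was then set against that at the 2-cell stage by an interaction term, which called 0 of the 10 genes (limma, 1.74% of all genes). At an unadjusted p under 0.05 were Epcam (difference in log2 change 0.95 ± 0.26 SE, adjusted p = 0.0857), Klrg2 (1.43 ± 0.41, 0.101), Qrich1 (-0.88 ± 0.26, 0.105), Sox13 (0.99 ± 0.37, 0.183) and Bzw2 (0.61 ± 0.25, 0.224). Epcam was called with only the libraries compared in the fit (adjusted p = 0.0472) and Qrich1 without the second PR-DUB OE 4-cell library (0.044). Klrg2, Qrich1 and Bzw2 pointed in opposite directions at the 2 stages, which the test did not separate. For Bzw2 the 2-cell log2 change was only -0.06, with overlapping groups.

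**Figure D3:**
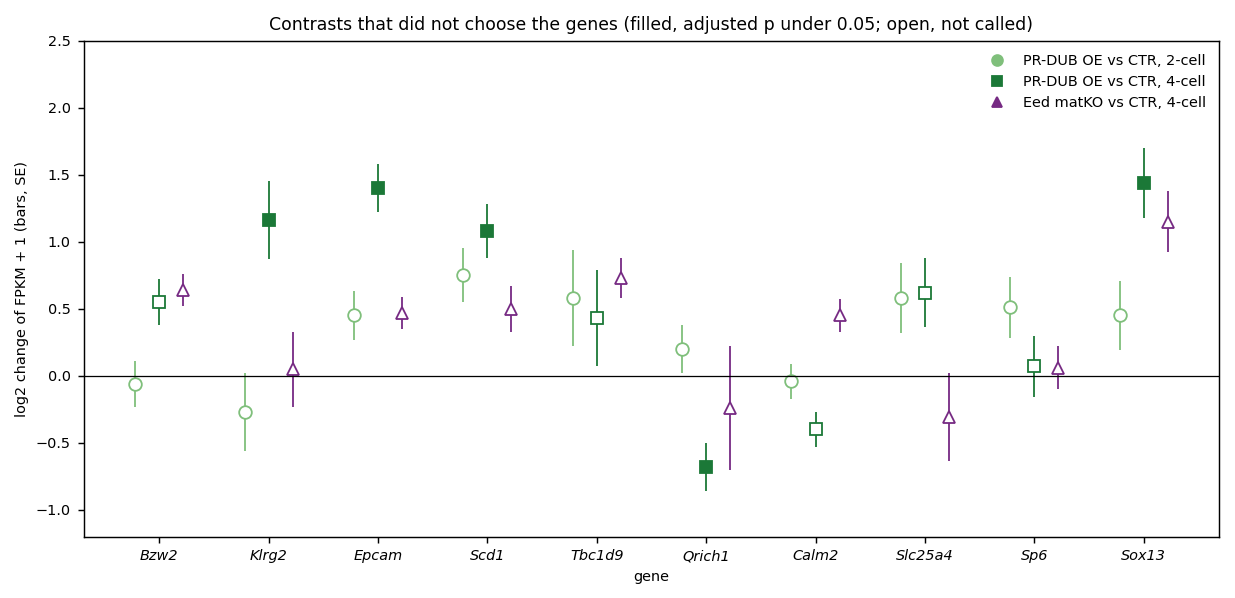
Log2 change of FPKM + 1, with its SE as a bar, for the 10 genes in the 3 manipulations whose libraries did not choose them: PR-DUB OE against CTR at the 2-cell stage (circles) and the 4-cell stage (squares), and Eed matKO against CTR (triangles); filled symbols have an adjusted p under 0.05. Filled symbols are seen for Klrg2, Epcam, Scd1, Qrich1 and Sox13 at the PR-DUB 4-cell stage and nowhere else.

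Loss of maternal Eed, which removes PRC2 activity of the oocyte where the deletion is complete, left no gene of the 10 past the threshold. In that comparison 2 of 11679 genes were called (0.0171%), and each group had 2 libraries with 2 residual degrees of freedom. Eed RNA itself was 28.5 and 33.1 FPKM in CTR and 22.7 and 26.9 in matKO 4-cell embryos, with wild-type fathers; the deleted part of the gene is not given, so this level does not check the knockout. At an unadjusted p under 0.05, 6 genes were higher, and the same 6 were higher without overlap (20.7% of all genes); 0 were lower (18.7%).

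Sox13 had 8.14 and 5.56 FPKM in CTR and 14.6 and 17.8 in matKO, 2.37-fold (log2 change 1.15 ± 0.23 SE, adjusted p = 0.353). Tbc1d9 had 37.6 and 30 against 55.7 and 56.9, 1.66-fold (adjusted p = 0.353). Bzw2 had 74.8 and 87.4 against 125 and 128, 1.56-fold (adjusted p = 0.344). In each of these 3 genes both matKO libraries were above both controls.

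Scd1 (15.1 and 15.0 against 24.4 and 19.4 FPKM, adjusted p = 0.566), Epcam (57.9 and 50.1 against 73.7 and 76.1, 0.484) and Calm2 (76.7 and 84.5 against 117 and 105, 0.474) were likewise higher without overlap at ratios of 1.45, 1.39 and 1.37. Klrg2 (5.73 and 10.4 against 8.19 and 7.93), Qrich1 (9.11 and 13.7 against 15.6 and 5.45), Slc25a4 (13.3 and 27.0 against 13.2 and 17.4) and Sp6 (14.0 and 15.4 against 14.4 and 16.3) overlapped. The median log2 change was 0.46 for the 10 genes and 0.007 for all genes. The oocyte marker sum was 88.8 to 115 in CTR and 122 to 143 in matKO. Of its genes only Oosp1 had a higher mean in matKO (42.3 and 37.3 FPKM in CTR, 85.2 and 62.9 in matKO). The means of Zp3, Gdf9, Bmp15 and Mos were slightly lower in matKO, so the sum does not show oocyte RNA in general to be higher. The part of these markers was not tested.

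Unmanipulated material showed which of these RNAs were already in the egg. From MII oocyte to late 2-cell embryo 7 genes rose and Slc25a4 fell, against 82.7% of all genes called (38.0% higher and 44.6% lower). The 7 were the genes with a KDM6B ratio of 2.93 or more at the 2-cell stage. That ratio comes from the libraries that chose the genes, and other genes with such ratios were not examined in oocytes. The match therefore describes these genes only. Sp6 was listed at 0 FPKM in both oocyte libraries and at 65.0 and 68.5 in late 2-cell embryos (log2 change 6.08 ± 0.15 SE, adjusted p = 7.51e-06), and Tbc1d9 at 0 and then at 30.6 and 33.7 (5.05 ± 0.16, adjusted p = 1.03e-05). For these 2 genes no fold is given.

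Klrg2 was at 0 and 0.0159 FPKM in oocytes and 19.5 and 22.7 in late 2-cell embryos (adjusted p = 1.52e-05), and Scd1 at 0.0112 and 0 against 23.6 and 27.1 (adjusted p = 1.26e-05). Epcam rose 110.0-fold, from 0.334 and 0.428 to 43.6 and 40.2 (adjusted p = 1e-05). Sox13 rose 35.4-fold from 0.453 and 1.17 (adjusted p = 4.2e-05) and Bzw2 20.5-fold from 1.57 and 1.71 (adjusted p = 1.57e-05). Each of these 7 RNAs was thus low or listed at 0 in the oocyte libraries.

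Qrich1, Calm2 and Slc25a4, which had the 3 largest KDM6B ratios at the 4-cell stage, were already present in oocytes. The 4 genes with smaller 4-cell ratios (Sox13, Sp6, Epcam and Bzw2) are among the 7 that were low or at 0 there. This grouping also rests on the KDM6B values that chose the genes, and it was not tested. Qrich1 had 25.6 and 31.1 FPKM in oocytes and 40.8 and 28.8 in late 2-cell embryos, with overlap (adjusted p = 0.253). Calm2 had 184 and 151 against 148 and 130.3 (adjusted p = 0.143). Without overlap 7 of the 10 genes were higher (42.1% of all genes) and 2, Calm2 and Slc25a4, lower (49.3%). Slc25a4 fell 7.46-fold, from 14.1 and 15.6 to 2.3 and 1.67 (log2 change -2.41 ± 0.18 SE, adjusted p = 9.05e-05). The median log2 change of all genes was -0.202 here, and 0.054 after rescaling; the 8 calls kept their directions under rescaling, and Qrich1 was then called as higher (adjusted p = 0.0361).

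Few genes related to the 10 by family or pathway were called with KDM6B. Of 80 such genes in 10 lists, 65 passed the filter, and their median log2 difference between KDM6B OE and CTR was -0.04 at the 2-cell and 0.00 at the 4-cell stage, beside 0.00 and -0.033 for all genes. At the 2-cell stage 0.757% of all genes were called, and of the 65 only Tbc1d8, a TBC family member, which fell from 26.7 ± 0.567 to 9.57 ± 0.521 FPKM (SD, n = 2; adjusted p = 0.0172). That call was lost with only the 4 libraries fitted and without either CTR library or the second OE library. At the 4-cell stage 0.359% were called, and of the 65 only Sp1, an Sp factor, which rose from 18.1 ± 1.55 to 38.3 ± 5.53 FPKM (adjusted p = 0.0456), a call kept by none of the alternatives tried.

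The closest relatives are set beside the members without a test of the difference between them. Slc25a5, the main somatic sister of Slc25a4, of 4-cell embryos was at 79.3 ± 15.4 FPKM in KDM6B CTR and 28.3 ± 14.4 in OE, with the opposite sign to Slc25a4 (adjusted p = 0.0665, not called). Slc25a4 made up 10.7% and 5.97% of the summed FPKM of the ADP/ATP carrier genes in those CTR libraries and 38.8% and 63.6% in OE, while the sum itself was 78 and 96.8 in CTR and 65.4 and 55.8 in OE. In PR-DUB 4-cell libraries the share was 28.9% to 35.4%. Bzw1, the paralog of Bzw2, of 2-cell embryos was at 72.8 ± 7.2 FPKM in KDM6B CTR and 94.8 ± 11.9 in OE (adjusted p = 0.161). Scd2 was near the detection limit there, at 0.318 ± 0.164 and 0.5 ± 0.0851.

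With PR-DUB OE at the 4-cell stage 10 of the 65 related genes rose and 4 fell, where 12.3% of all genes rose and 3.41% fell. The count that rose was near its background share. No list was tested as a set, so the calls by list below describe no pattern of a family. Of 10 tested genes of fatty acid synthesis and desaturation, the list around Scd1, 4 rose and 0 fell. Fads1, a desaturase of polyunsaturated fatty acids, went from 0.669 ± 0.15 to 5.36 ± 1 FPKM (SD, n = 2; adjusted p = 0.000963), Scd2 from 0.569 ± 0.134 to 3.35 ± 0.25 (adjusted p = 0.00966), Fasn, the fatty acid synthase, from 4.29 ± 1.43 to 12.1 ± 0.312 (adjusted p = 0.0298) and the elongase Elovl5 from 3.42 ± 0.207 to 7.16 ± 0.351 (adjusted p = 0.047). Fads1 was called under all 9 alternatives and Scd2 under 7, but Fasn under only 3 and Elovl5 under only 2. The list's median log2 change was 0.76, beside 0.129 for all genes.

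Around Qrich1, 2 of 6 tested genes of the PERK branch of the unfolded protein response fell and 1 rose. Ddit3, a stress-induced transcription factor also called CHOP, went from 29.1 ± 1.21 to 2.31 ± 0.601 FPKM, a 12.6-fold drop (adjusted p = 0.000444), and Atf4, which acts upstream of it, from 186 ± 8.79 to 117 ± 6.43 (adjusted p = 0.00405). The PR-DUB CTR level of Ddit3 stood apart from that of other 4-cell embryos. Ddit3 was at 7.31 ± 3.0 FPKM in KDM6B CTR, 7.7 ± 3.83 in KDM6B OE and 4.19 ± 1.42 in the separately normalized Eed CTR. Trib3, itself a target of the pathway, rose from 4.09 ± 0.454 to 8.21 ± 2.18 (adjusted p = 0.0407), so that the list did not move 1 way.

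Around Epcam, Tjp1 and Cldn6, both of tight junctions, rose (2 of 10 tested, 0 fell; 1.7- and 2.12-fold, adjusted p = 0.00782 and 0.0226). Around Bzw2, Bzw1 and Eif2s1 fell and Eif1ax rose (2 and 1 of 7; adjusted p = 0.0131, 0.0335 and 0.0307). Sox2, a pluripotency factor, was the 1 of 6 Sox genes that rose (0.192 ± 0.182 to 1.67 ± 0.414 FPKM, adjusted p = 0.0343), and Calm3 the 1 of 7 genes around Calm2 (13.6 ± 0.144 to 27.4 ± 2.99, adjusted p = 0.00603). None of the 7 mitochondrial exchange, 6 TBC and 6 Sp genes tested was called. Atf4, Calm3, Ddit3 and Fads1 kept their calls under all 9 alternatives; without 1 library the count of 14 fell to 6 or 7. At the 2-cell stage Sox2 alone rose with PR-DUB OE (1.34 ± 0.191 to 5.9 ± 0.437 FPKM, adjusted p = 0.048), a call kept by none of the alternatives. In Eed matKO 0 of 56 tested related genes were called.

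Over development 17 of the 65 related genes rose and 15 fell from the 2-cell to the 4-cell stage of the PR-DUB controls. Over all genes 26.5% rose and 30.2% fell, so these counts were near or below the background, and the names below list the calls and describe no pattern of a family. Of 10 adhesion genes 5 rose (Cdh1, Ctnna1, Ctnnd1, Jup and Tjp1) and Cldn6 fell, and the mitochondrial carriers and channels Slc25a3, Slc25a5, Vdac2 and Vdac3 rose. The translation factors Bzw1, Eif2s1, Eif2s2 and Eif5 rose, and the PERK branch genes Atf4, Eif2ak3, Ppp1r15a and Trib3 fell. Camkk2, Ppp3cb and Ppp3r1 fell in the calmodulin list, Tbc1d10b, Tbc1d8 and Tbc1d9b fell in the TBC list, and Acaca rose among lipid genes. Sox12 and Sox15 rose while Sox2 and Sox6 fell, and Sp4 rose while Sp1 and Sp2 fell. Sox15 had the widest change of these, from 5.38 ± 0.536 to 268 ± 28 FPKM (SD, n = 2; adjusted p = 1.14e-07).

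From oocyte to late 2-cell embryo 23 of 56 related genes rose and 24 fell, near the shares over all genes of 38.0% and 44.6%, so again the calls are only listed. All 4 tested Sp genes rose (Sp1, Sp2, Sp3 and Sp4), as did Sox15 and Sox4 with Sox6 falling. Atf4, Eif2ak3, Ppp1r15a and Trib3 rose and Ddit3 fell in the PERK list, and Bzw1, Eif1, Eif2s1 and Eif5 rose while Eif1ax, Eif1b and Eif2s2 fell among translation factors. Acaca, Elovl6 and Fasn rose and Elovl5 and Srebf1 fell among lipid genes. Elovl6, which lengthens saturated fatty acids, went from 0.0413 ± 0.0067 to 50.9 ± 0.595 FPKM (adjusted p = 8.68e-06).

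Over the same step 5 of 9 adhesion genes fell (Cdh1, Cldn4, Ctnna1, Ctnnd1 and Tjp1) and 2 rose (Cldn6 and Ocln). In the calmodulin list Camk2g, Ppp3ca and Ppp3r1 were among those that fell, and Calm3 rose. Slc25a31, Slc25a5, Vdac2 and Vdac3 fell, while Slc25a3 and Vdac1 rose, and Tbc1d1, Tbc1d15 and Tbc1d8 fell while Tbc1d20 rose. Klrb1, the 1 tested gene of the receptor list around Klrg2, fell from 1.78 ± 0.196 FPKM to being listed at 0.

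Across the 16 PR-DUB and KDM6B libraries the 10 genes formed loose groups, described here by Pearson's r of log2(FPKM + 1) over libraries that share stages and controls. Epcam and Sox13 were most alike (r = 0.97), followed by Bzw2 and Tbc1d9 (0.96) and Qrich1 and Calm2 (0.84), while Tbc1d9 and Qrich1 ran most oppositely (-0.71). Epcam and its neighbour Calm2 had an r of 0.06. Among all other tested genes, the one whose levels were most like each member was Parp1 for Bzw2 (0.969), Ap4e1 for Klrg2 (0.924), Diexf for both Epcam (0.932) and Sox13 (0.891), Polr3d for Scd1 (0.917) and Yif1b for Tbc1d9 (0.982). For the remaining members it was Setd3 for Qrich1 (0.978), Oat for Calm2 (0.908), Ddx3y, a gene of the Y chromosome, for Slc25a4 (0.935), and Pcgf6 for Sp6 (0.843). Each r is the highest over all genes compared, and the sex of the pooled embryos is not given.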

How the data were processed

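Groups were taken from the sample titles, and from the manipulation field for Eed matKO. The deposited values are FPKM from StringTie 1.3.3b after HISAT2 2.1.0 (mm10) and Trim Galore 0.6.5, as the submitters' processing notes list the authors' tools; no source used here gives the annotation release. Of 24 libraries, 16 (PR-DUB and KDM6B) form 1 table, 4 (Eed) another and 4 (MII and late 2-cell) a further one, and tests stayed within a table.

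FPKM were taken to log2(FPKM + 1), on which changes of low genes are understated; folds are ratios of mean FPKM. The filter kept genes listed at 1 FPKM or more in 2 or more libraries of a table, and these were tested with limma 3.58.1 in R 4.3.3 (trend, two-sided, Benjamini-Hochberg over all genes tested; calls at adjusted p under 0.05). Group means of the 16 libraries were fitted together, 8 of them with 8 residual degrees of freedom; the other tables had 2. The smallest p of an exact permutation test of 2 against 2 libraries is 0.333. The fitting was tested on simulated data. Not overlapping means that both libraries of a group lie on 1 side of both of the other. ± is SD of FPKM or, with log2 changes, SE.

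The 10 genes, the related lists and the markers were chosen with earlier results of these data known. All 10 members are named in each contrast, related genes where called or among the 3 highest by mean FPKM of their list, and per member the 1 gene of highest correlation; Scd2 and the oppositely placed pairs were named after their values were seen. Alternatives were another pseudocount (0.1), no filter, rescaled libraries, only the compared libraries, a replicate block, and leaving out each library. No column was left out; values of 1 related gene are not reported here.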

Additional observations from a re-analysis of the deposited data

Results flagged for a closer look

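Slc25a4 lay in opposite order at the 2 stages of the KDM6B experiment. At the 2-cell stage both OE libraries (4.48 and 4.31 FPKM) were below both CTR libraries (4.89 and 4.51), a log2 difference of -0.08, and at the 4-cell stage both OE libraries (25.4 and 35.5) were above both CTR libraries (8.35 and 5.78), a log2 difference of 1.96. The difference between the stages was not tested, since the gene was chosen on these libraries, and the 2-cell gap is smaller than the SE of 0.26.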

How the results depend on the processing

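Of the 21 changes of single members called in the report none reversed under any alternative run for it. Klrg2 (adjusted p 0.02 to 0.13) and Qrich1 (0.0097 to 0.207) at the PR-DUB 4-cell stage and Scd1 between stages (0.00872 to 0.0871) crossed the threshold in 3, 5 and 1 of 9 alternatives. The untested KDM6B differences moved by more than their SE in 1 of 20 cases with a pseudocount of 0.1 (Tbc1d9 at the 2-cell stage, log2 2.2 instead of 1.79) and in none when rescaled. The Qrich1 call was the only member call lost with the replicate block (adjusted p = 0.0586). The 5 members called for PR-DUB at the 4-cell stage were 6 when rescaled and 3 to 5 without 1 library, the 8 between PR-DUB stages were 10 with only the compared libraries, the 8 from oocyte to late 2-cell were 9 when rescaled, and the 0 called for its difference between stages were 1 with only the compared libraries and 0 to 1 without 1 library.

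Related genes called with KDM6B at the 2-cell stage (1) were 0 with only the compared libraries, 0 with the replicate block and 0 to 3 without 1 library. At the 4-cell stage (1) they were 0 with the pseudocount of 0.1, without the filter, rescaled, with only the compared libraries and with the block, and 0 to 1 without 1 library. For PR-DUB at the 2-cell stage (1) they were 0 in each of these, and at the 4-cell stage (14) 6 to 7 without 1 library.

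Over all genes the KDM6B 2-cell count of 114 was 195 with the pseudocount of 0.1, 1 with only the compared libraries, 0 with the replicate block and 9 to 353 without 1 library. The 4-cell count of 54 was 24, 1 and 2 in that order, 106 without the filter and 18 to 91 without 1 library. The PR-DUB 2-cell count of 177 was 4 with only the compared libraries, 2 with the block and 10 to 21 without 1 library, and the 4-cell count of 2368 was 1077 to 1343 without 1 library. The Eed count of 2 was 0 without the filter and 0 to 3 without 1 library. Where a group was left with 1 library, that library was assumed to vary like the others, and fewer samples enter these fits and those of only the compared libraries; the cause of the other shifts was not tested. Same-numbered libraries did not deviate together (correlations of -0.062 to 0.037), so the block rests on a shared number only. With 2 libraries a group, members without a call may still differ.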
